A study of Homo sapiens with 9 samples.

Results

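Chromatin modifier and remodeller genes were followed in Caki-1, an established cell line from human clear cell renal carcinoma, after knockdown of TAF1D. The members are the genes whose symbol starts with KDM, KMT, HDAC, SETD, CHD, ARID, SMARC, BRD, KAT, EHMT, NSD, PHF or BAZ followed by a digit or a letter, leaving out genes that the deposited pathway column places in the cell cycle. This spelling rule took 86 genes of 6819 in the deposited table, with 370 of its 20909 transcripts, and the cell cycle clause removed 0 of them. Functions were assigned from fixed lists, and the activity of each gene was not checked. So sorted, they were 18 lysine methyltransferases, 14 lysine demethylases, 7 histone deacetylases, 5 lysine acetyltransferases and 8 SWI/SNF subunits. There were also 5 CHD remodellers, 4 ISWI-type and other remodellers, 5 other ARID proteins, 10 other PHD finger proteins and 4 other bromodomain proteins. The spelling also took the readthrough gene SETDB2-PHF11 and 5 genes of other function: KATNA1, KATNAL1, KATNBL1 and KATNIP, named for the microtubule-severing enzyme katanin, and NSDHL, an enzyme of cholesterol synthesis.

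Total RNA was sequenced in 9 libraries: 3 named SH3 and 3 named SH1, both labelled TAF1D knockdown by short hairpin RNA, and 3 controls labelled WT. The names SH1 and SH3 are not explained in the labels, nor is it stated which construct the controls carried or whether the libraries of a group came from separate cultures, so p-values measure the spread between these libraries, which may be technical. The deposited table is a selection: 100% of its transcripts differ at least 2-fold in estimated count between SH1 1 and control 1, and 51.5% to 64.9% of them do so in any of the remaining 35 pairs. A member's level is therefore the sum over its listed transcripts, in FPKM (fragments scaled by transcript length and library size), and not over the whole gene. Fold changes were fitted on summed estimated counts, scaled over listed transcripts only, and can differ from the FPKM in size and direction. Values without SH1 1 and control 1 are given where they end a call, turn a direction or move a printed fold or median by over 1.5 times. TAF1D was not analysed here, and the loss of the target was not checked. Listed estimated counts added up to 1450201 to 1466297 per library in SH3, 1520518 to 1596467 in SH1 and 1358215 to 1412867 in controls, of which the members held 21134 to 23470, 25627 to 29455 and 23042 to 27195 in the same order of groups. Of 25 markers of kidney and other cell types, 2 were listed. PAX8, a transcription factor of the kidney lineage, had 2.88, 9.97 and 3.05 FPKM in SH3, 6.65, 4.44 and 5.16 FPKM in SH1 and 2.26, 3.08 and 1.44 FPKM in controls. PDGFRB, a marker of fibroblasts, had 0.28 to 0.31 FPKM in SH3, 0.21 to 0.34 FPKM in SH1 and 0.16 to 0.33 FPKM in controls. Every SH1 library was above every control for PAX8, and the other groups overlapped. In these bulk samples, fewer cells with a transcript and less of it per cell cannot be told apart.

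DNA is wound around histones, and the enzymes in this group add or remove acetyl and methyl groups on histone tails or use ATP to move histones along DNA. Bromodomains read acetylated lysines, and PHD fingers read the methylation state of the histone tail. In clear cell renal carcinoma, genes of this kind such as PBRM1, SETD2, BAP1 and KDM5C are recurrently inactivated. TAF1D belongs to SL1, a complex with which RNA polymerase I starts transcription of ribosomal RNA genes, whose active and silent copies are set apart by several of these regulators.

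Each knockdown group was set against the controls, the question of the study being what loss of TAF1D changes, and the knockdown groups were set against each other. Few members differed beyond the spread between libraries. Of 82 members with enough counts to be tested, 1 passed the threshold (adjusted p under 0.05, edgeR quasi-likelihood test, Benjamini-Hochberg over 6398 genes): KMT2C, which was lower in SH3 than in SH1. That is 1.22% of the tested members, and 1.36% of all genes tested passed in the same comparison. Against control, 0 members passed in SH3, 0 in SH1 and 0 in the average of both knockdown groups, where 0.406%, 2.14% and 1.11% of all genes passed. Without SH1 1 and control 1, KMT2C did not pass, and the members called were 0 in SH3 and 0 in the average against control (0.11% and 0.33% of all genes), and SETDB2-PHF11 alone both in SH1 against control, lower, and in SH3 against SH1, higher (0.895% and 0.88%). At an unadjusted p under 0.05 there were 0 members higher and 5 lower in SH3, 6 higher and 3 lower in SH1, and 2 higher and 1 lower in the average, which is 6.1%, 11.0% and 3.66% of the members. The shares over all genes were 8.39%, 11.5% and 10.2%, and 4.14% of all genes were lower at that level in SH3 against control. In SH3 against SH1, 2 members were higher and 9 lower at that level, 13.4% of the members against 10.8% of all genes (5.22% lower).

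The DESeq2 Wald test called more members, as it did over all genes. It called 1 lower in SH3 than in control (EHMT2; 4.03% of all genes passed), 4 higher and 1 lower in SH1 than in control (KMT2C, KMT2D, PHF21A and KATNAL1 higher, ARID5B lower; 7.21% of all genes), and 6 lower in SH3 than in SH1 (KMT2C, EHMT2, SETD5, CHD3, KAT6B and KMT2D; 6.49% of all genes). For the average against control it called PHF21A higher and ARID5B lower (5.63% of all genes). The median log2 fold change over tested members was -0.23 in SH3, -0.07 in SH1 and -0.14 in the average against control, beside -0.03, -0.03 and -0.07 over all genes tested. In SH3 against SH1 it was -0.08 over the members and 0.00 over all genes. The members' medians without SH1 1 and control 1 were -0.19, 0.01, -0.09 and -0.14 in the same order of comparisons, beside 0.02, 0.01, -0.03 and 0.01 over all genes. Summed over all 86 members, the level was 222 to 241 FPKM in SH3, 253 to 289 FPKM in SH1 and 237 to 289 FPKM in controls, so the range of SH3 lay below that of SH1 and overlapped that of the controls. The listed counts of the whole table were also lower in SH3 than in SH1 (1450201 to 1466297 against 1520518 to 1596467). Of the listed counts, the members held 1.45% to 1.60% in SH3, 1.68% to 1.87% in SH1 and 1.63% to 1.93% in controls.

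KMT2C encodes a large methyltransferase that places the monomethyl mark on histone H3 at enhancers. Its listed transcripts summed to 2.02, 1.7 and 2.01 FPKM in SH3, 3.53, 3.26 and 3.52 FPKM in SH1 and 2.4, 1.99 and 2.23 FPKM in controls. Every SH1 library lay above every library of SH3 and of the controls, while SH3 and the controls overlapped. The log2 fold change was -0.77 ± 0.14 (SE) in SH3 against SH1 (adjusted p = 0.0437; 6.94e-09 by DESeq2). It was 0.48 ± 0.14 in SH1 against control (adjusted p = 0.169) and -0.29 ± 0.14 in SH3 against control (adjusted p = 0.633). Without SH1 1 and control 1 the SH3 to SH1 difference was -0.80 with an adjusted p of 0.102. Leaving out any single library of SH3 or SH1, or control 2 or 3, also ended the call, and over these fits and that without control 1 the fold ran from -0.81 to -0.68 and the adjusted p from 0.0496 to 0.155. KMT2C kept its direction in all of these fits.

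The 250 bases before the transcription start are shown for KMT2C, for EHMT2, the member second nearest to the threshold in the same comparison, and for ARID5B, which had the smallest p in SH1 against control. Capitals mark GC boxes (GGGCGG on either strand, overlapping matches counted), the motif bound by factors of the Sp family. The sequences are from RefSeq (GRCh38.p14), 5′ to 3′ on the gene's strand, and the data hold no measurement at the promoters.
KMT2C, chr7:152436004-152436253, minus strand. KMT2C: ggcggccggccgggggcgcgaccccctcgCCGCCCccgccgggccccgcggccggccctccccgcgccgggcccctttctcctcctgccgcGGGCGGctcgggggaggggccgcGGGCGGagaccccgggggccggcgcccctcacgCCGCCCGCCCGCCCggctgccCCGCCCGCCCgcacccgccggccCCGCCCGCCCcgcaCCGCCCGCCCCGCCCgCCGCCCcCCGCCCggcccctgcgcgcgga
EHMT2, chr6:31897699-31897948, minus strand. EHMT2: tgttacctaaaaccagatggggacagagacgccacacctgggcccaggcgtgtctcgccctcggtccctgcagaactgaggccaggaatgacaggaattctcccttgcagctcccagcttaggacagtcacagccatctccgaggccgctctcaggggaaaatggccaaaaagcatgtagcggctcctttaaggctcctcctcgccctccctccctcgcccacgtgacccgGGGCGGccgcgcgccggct
ARID5B, chr10:61901449-61901698, plus strand, the first of 2 starts in the table. ARID5B: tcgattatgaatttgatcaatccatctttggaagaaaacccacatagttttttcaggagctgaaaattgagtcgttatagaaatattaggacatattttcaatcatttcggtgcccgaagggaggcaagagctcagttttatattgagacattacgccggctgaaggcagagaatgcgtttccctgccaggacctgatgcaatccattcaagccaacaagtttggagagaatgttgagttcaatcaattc
The KMT2C stretch held 15 GC boxes, 48 CG dinucleotides and 92% G and C, the EHMT2 stretch 1 GC box, 16 CG dinucleotides and 63.2% G and C, and the ARID5B stretch 0 GC boxes, 7 CG dinucleotides and 40.4% G and C. Promoters were matched for 76 members with 137 starts. A GC box was present in 61.3% of the members' starts and 42.6% of 35116 starts of all genes in the reference. The reference genes were not limited to those of the deposited table. The median number of CG dinucleotides was 23 over the members' starts and 11 over all starts. CCGGAAG, the core bound by ETS factors, was present in 8.76% and 8.52%, CCAAT in 27.7% and 32.0%, and TATAAA in 1.46% and 10.7%. A match is a description of the letters and not a bound site.

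**Figure D1:**
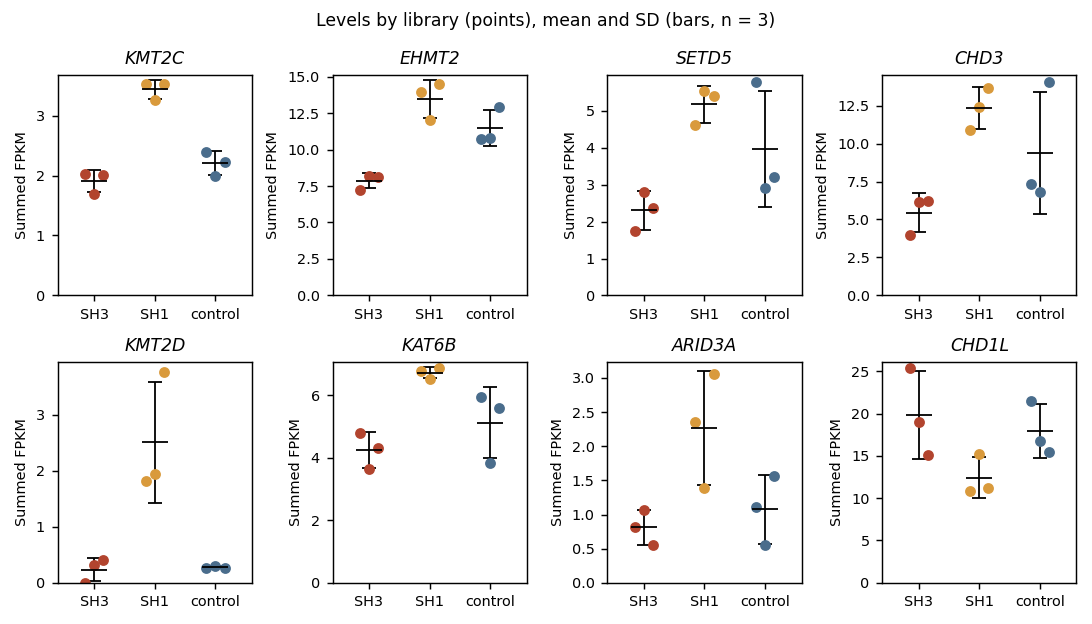
Summed FPKM of the 8 members with the smallest p in SH3 against SH1, by group; points are libraries and bars the mean ± SD (n = 3). For KMT2C, EHMT2, SETD5, CHD3, KMT2D, KAT6B and ARID3A every SH3 library lies below every SH1 library, and for CHD1L the groups overlap.

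The 18 listed KMT2C transcripts are all predicted RefSeq models, and none passed by itself. Their mean level was lower in SH3 than in SH1 for 12 and higher for 6. Of 17 tested, 0 had an unadjusted p under 0.05 in SH3 against SH1, and the smallest adjusted p was 0.777. Of their 162 values 57 were 0, 0 transcripts were above 0 in every library, and the highest value was 0.7 FPKM. The sum was above 0 in every library, at 1.91 ± 0.18 FPKM in SH3, 3.44 ± 0.15 in SH1 and 2.21 ± 0.21 in controls (mean ± SD).

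**Figure D2:**
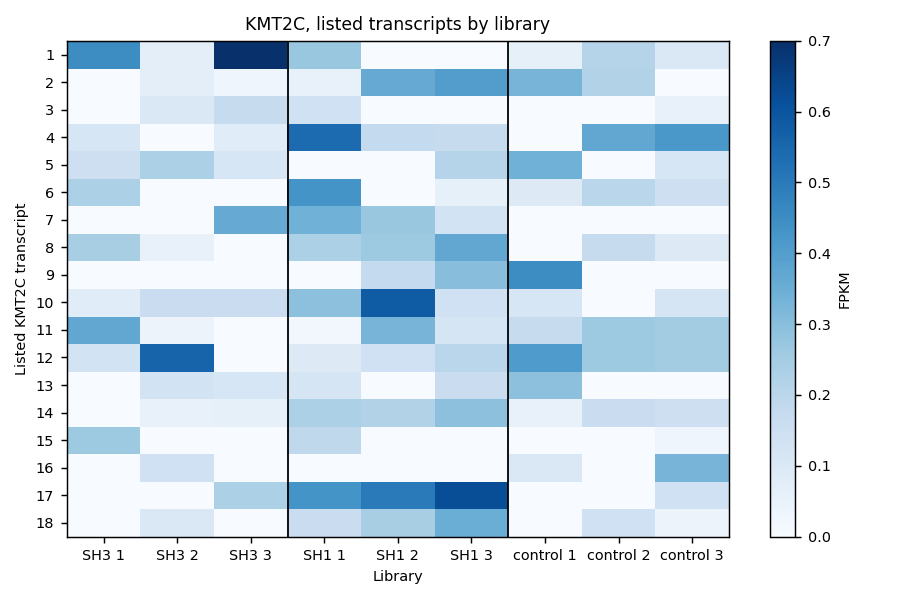
FPKM of the 18 listed KMT2C transcripts (down the page) in each library (across), with white for 0. Transcripts come and go between libraries of 1 group, and 57 of the 162 values are 0.

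Of the other lysine methyltransferases, those that place repressive methyl marks on histone H3 did not pass, and their folds went both ways. EHMT2, the catalytic core of the G9a complex, had 7.25, 8.17 and 8.15 FPKM in SH3, 13.92, 11.99 and 14.47 FPKM in SH1 and 10.72, 10.81 and 12.89 FPKM in controls. SH3 lay below both other groups without overlap, and SH1 overlapped the controls. The log2 fold change of EHMT2 was -0.69 ± 0.16 in SH3 against SH1 (adjusted p = 0.104) and -0.62 ± 0.16 in SH3 against control (adjusted p = 0.225), and DESeq2 gave adjusted p-values of 0.000292 and 0.00511. Of the 21 EHMT2 transcripts listed, 14 are extra copies of a transcript at another place of the annotation, and how reads were shared among copies is not given in the sources used here. EHMT1, its partner enzyme, had 4.07, 5.19 and 5.98 FPKM in SH3, 8.08, 7.19 and 8.73 FPKM in SH1 and 6.73, 6.05 and 8.74 FPKM in controls. Here too SH3 lay below both other groups (log2 fold change -0.50 ± 0.24 against control, adjusted p = 0.647). SETDB1, which adds a repressive trimethyl mark, had 1.87, 0.82 and 2.18 FPKM in SH3, 1.98, 6.54 and 5.67 FPKM in SH1 and 2.41, 4.26 and 7.2 FPKM in controls (-1.59 ± 0.62 in SH3 against control, adjusted p = 0.539). For SETDB1 SH3 was below the controls and overlapped SH1. Its relative SETDB2 had 2.29, 0.54 and 1.2 FPKM in SH3, 1.7, 1.25 and 1 FPKM in SH1 and 0.6, 0.75 and 1.14 FPKM in controls, with overlap between all groups and a positive fold in SH3 against control (0.84 ± 0.61, adjusted p = 0.873).

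Further methyltransferases act on active chromatin. KMT2D, the paralog of KMT2C, had 0, 0.31 and 0.4 FPKM in SH3, 1.82, 1.95 and 3.76 FPKM in SH1 and 0.27, 0.3 and 0.27 FPKM in controls. All SH1 libraries were above all others. Its log2 fold change was 3.01 ± 1.03 in SH1 against control (adjusted p = 0.298) and -3.31 ± 1.04 in SH3 against SH1 (adjusted p = 0.255). Without SH3 1 the comparison of SH1 with control passed (adjusted p = 0.0121), as it did by DESeq2 (0.0263). It did not pass when any other library was left out (adjusted p up to 0.494), nor without SH1 1 and control 1 (0.568). SETD5, a SET-domain protein, had 1.74, 2.8 and 2.38 FPKM in SH3, 4.61, 5.54 and 5.4 FPKM in SH1 and 5.78, 2.9 and 3.22 FPKM in controls. SH3 was below both other groups (-1.06 ± 0.28 against SH1, adjusted p = 0.176; -0.80 ± 0.28 against control, adjusted p = 0.472), and without SH1 1 and control 1 the fold against control was -0.47. SETD2, which trimethylates histone H3 along transcribed genes and is often lost in this carcinoma, had 6.48, 5.71 and 2.87 FPKM in SH3, 0, 1.09 and 2.56 FPKM in SH1 and 5.14, 10.11 and 11.59 FPKM in controls. SH1 was below both other groups, on 2 listed transcripts, and the log2 fold change of -3.05 ± 1.38 in SH1 against control did not pass (adjusted p = 0.46). SETD1A, the catalytic subunit of a promoter methyltransferase complex, averaged 6.97 ± 0.71 FPKM in SH3, 8.63 ± 2.45 FPKM in SH1 and 8.76 ± 1.67 FPKM in controls (SD, n = 3 each). Over all 18 methyltransferases, 1 passed in SH3 against SH1 (lower) and 0 passed against control. Of the 18, 13 had a negative fold in SH3 against control, with a median of -0.36, and 9 in SH1 against control, with a median of 0.02 (0.24 without SH1 1 and control 1).

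**Figure D3:**
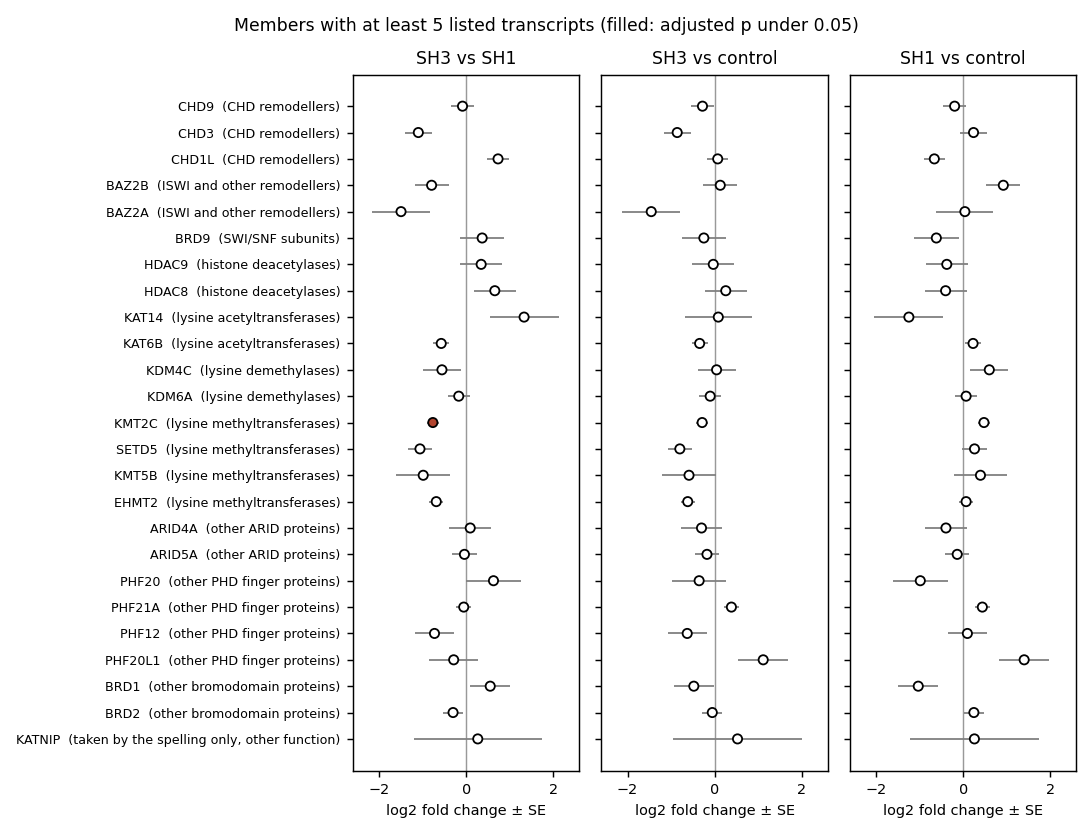
Log2 fold change ± SE (edgeR) of the 25 members with at least 5 listed transcripts in 3 comparisons, by function. The 1 filled point, KMT2C in SH3 against SH1, is past the threshold.

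No lysine demethylase passed the test in any comparison. KDM5C, which removes methyl groups from promoter histones and is lost in a share of these carcinomas, had 13.06, 14.1 and 10.87 FPKM in SH3, 11.45, 19 and 7.67 FPKM in SH1 and 4.24, 16.26 and 10.17 FPKM in controls. The groups overlapped throughout (0.15 ± 0.45 for the average against control, adjusted p = 0.983), and the fold was -0.17 without SH1 1 and control 1. KDM3A, a hypoxia-responsive demethylase of repressive marks, averaged 7.68 ± 1.88 FPKM in SH3, 5.34 ± 3.56 FPKM in SH1 and 5.22 ± 0.90 FPKM in controls. KDM6A, which removes Polycomb's methyl mark, averaged 2.77 ± 0.74, 3.39 ± 0.25 and 2.96 ± 0.30 FPKM in SH3, SH1 and controls. Its log2 fold change was -0.02 ± 0.22 for the average against control and -0.05 without SH1 1 and control 1. KDM1A, a drug target in leukaemia, had 0.34, 0 and 0.89 FPKM in SH3, 0, 1.23 and 0 FPKM in SH1 and 0.3, 0.51 and 0.9 FPKM in controls on 1 listed transcript. KDM4C had the largest positive fold for the average against control among demethylases at a mean of at least 1 FPKM (0.32 ± 0.38, adjusted p = 0.932) and KDM2A the lowest (-0.27 ± 1.83, adjusted p = 0.994; -0.58 without SH1 1 and control 1). Of 12 demethylases tested, 0 passed in any comparison, 6 had a positive and 6 a negative fold for the average.

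The enzymes of histone acetylation did not pass either, in 12 tested members. KAT6B, an acetyltransferase of the MYST family, had 4.79, 3.64 and 4.33 FPKM in SH3, 6.79, 6.52 and 6.87 FPKM in SH1 and 5.95, 3.84 and 5.59 FPKM in controls. SH1 was above SH3 and above the controls without overlap (-0.57 ± 0.18 in SH3 against SH1, adjusted p = 0.261; 0.0495 by DESeq2). Of its 23 listed transcripts 11 are such extra copies. KAT14, of the ATAC coactivator complex, averaged 2.93 ± 1.3 FPKM in SH3, 1.21 ± 1.13 FPKM in SH1 and 2.58 ± 1.6 FPKM in controls (-0.58 ± 0.66 for the average against control, adjusted p = 0.925). This fold was -1.49 without SH1 1 and control 1 (adjusted p = 0.32), and that of SH1 against control was -2.64 (adjusted p = 0.138), beside -1.25 with all libraries (adjusted p = 0.708). The average fold of KAT6B, -0.06 ± 0.16, was 0.07 without them. Among deacetylases, HDAC5, a signal-regulated enzyme that shuttles between nucleus and cytoplasm, averaged 4.1 ± 1.12, 4.48 ± 1.14 and 3.34 ± 0.33 FPKM in SH3, SH1 and controls (0.24 ± 0.24, adjusted p = 0.889). HDAC9, of the same class, averaged 1.59 ± 0.46, 1.26 ± 0.65 and 1.44 ± 0.45 FPKM (-0.20 ± 0.42, adjusted p = 0.975).

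The CHD family holds ATP-dependent remodellers with a chromodomain or a related build. CHD1L, a remodeller recruited to DNA damage by poly(ADP-ribose), had the highest mean level of all members, 16.7 FPKM. It had 25.36, 19 and 15.08 FPKM in SH3, 10.85, 15.27 and 11.22 FPKM in SH1 and 21.55, 16.71 and 15.49 FPKM in controls. SH1 was below the controls without overlap (-0.66 ± 0.25, adjusted p = 0.359; -0.38 without SH1 1 and control 1) and overlapped SH3 (0.73 ± 0.25 in SH3 against SH1, adjusted p = 0.297). CHD3, an ATPase of the NuRD corepressor complex, had 4, 6.15 and 6.21 FPKM in SH3, 10.91, 12.43 and 13.65 FPKM in SH1 and 7.32, 6.78 and 14.04 FPKM in controls. SH3 lay below both other groups (-1.10 ± 0.32 against SH1, adjusted p = 0.214; -0.86 ± 0.31 against control, adjusted p = 0.492). CHD9 averaged 3 ± 0.82, 3.4 ± 0.28 and 3.49 ± 0.96 FPKM in SH3, SH1 and controls (-0.24 ± 0.22 for the average against control, adjusted p = 0.878; -0.10 without SH1 1 and control 1). Of 5 CHD members, 0 passed.

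SWI/SNF subunits build the remodelling complexes that open enhancers and promoters. SMARCC2, a scaffold subunit, had 5.3, 6.58 and 7.09 FPKM in SH3, 10.26, 11.02 and 9.98 FPKM in SH1 and 7.14, 6.44 and 11.18 FPKM in controls. SH3 lay below SH1 without overlap (-0.56 ± 0.24, adjusted p = 0.464), and the controls overlapped both. SMARCA4, one of the alternative ATPases, averaged 2.69 ± 2.07 FPKM in SH3, 2.19 ± 1.42 FPKM in SH1 and 2.33 ± 1.88 FPKM in controls. ARID1A, the subunit most often mutated in carcinomas, had 1.05, 2.64 and 0 FPKM in SH3, 0.01, 2.17 and 0 FPKM in SH1 and 2.09, 0 and 0 FPKM in controls on 1 listed transcript, so its level could not be compared. BRD7 and BRD9, bromodomain subunits of the PBAF complex and of the non-canonical complex, had the largest and the smallest fold for the average against control among subunits with a mean of at least 1 FPKM (0.74 ± 0.60, adjusted p = 0.832, and -0.43 ± 0.43, adjusted p = 0.904). The BRD7 fold was 0.46 without SH1 1 and control 1. Of 7 SWI/SNF members tested, 0 passed, with medians of 0.15 in SH3 and 0.01 in SH1 against control (-0.05 and 0 without SH1 1 and control 1).

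Members known from the chromatin of ribosomal RNA genes were looked at because TAF1D serves RNA polymerase I. Of 8 such genes 4 were listed and 3 tested, and 0 passed in any comparison. BAZ2A, a subunit of the complex that silences ribosomal RNA genes, had 1.32, 0.73 and 4.3 FPKM in SH3, 4.54, 6.61 and 8.97 FPKM in SH1 and 2.19, 8.27 and 6.94 FPKM in controls. SH3 was below SH1 without overlap (-1.50 ± 0.67, adjusted p = 0.476) and overlapped the controls (-1.46 ± 0.67, adjusted p = 0.621). KDM2A, a demethylase that can repress these genes, had 0, 2.86 and 3.42 FPKM in SH3, 0.51, 2.33 and 3.45 FPKM in SH1 and 0, 6.43 and 0.17 FPKM in controls on 1 listed transcript. KDM2B, its paralog, had 0.61, 0.34 and 0.42 FPKM in SH3, 0.32, 0.25 and 1.05 FPKM in SH1 and 0.2, 0 and 0.25 FPKM in controls. SH3 was above the controls without overlap (1.57 ± 1.34, adjusted p = 0.947). PHF8, a demethylase reported to activate ribosomal RNA genes, was above 0 in 1 library, control 1 (0.35 FPKM), and was not tested. BAZ2B, a relative of BAZ2A, had 1.79, 1.16 and 1 FPKM in SH3, 2.87, 2.26 and 1.84 FPKM in SH1 and 1.13, 0.62 and 1.54 FPKM in controls. SH1 was above both other groups (0.92 ± 0.39 against control, adjusted p = 0.421).

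Among the remaining readers and DNA-binding members, ARID5B and PHF21A kept the same side of the controls in both knockdown groups. ARID5B, which partners a histone demethylase, had 0.63, 0.66 and 0.52 FPKM in SH3, 0.6, 0.51 and 0.46 FPKM in SH1 and 1.84, 1.03 and 0.87 FPKM in controls. Every knockdown library was below every control, with control 1 the highest. The log2 fold change was -1.12 ± 0.38 in SH3 (adjusted p = 0.439) and -1.39 ± 0.38 in SH1 (adjusted p = 0.157). For the average of both it was -1.25 ± 0.31 (adjusted p = 0.167; 0.00392 by DESeq2), and without SH1 1 and control 1 it was -0.95 (adjusted p = 0.427). PHF21A, a reader in the KDM1A corepressor complex, had 4.66, 4.82 and 4.54 FPKM in SH3, 6.11, 4.94 and 4.46 FPKM in SH1 and 3.45, 3.01 and 3.97 FPKM in controls. Every knockdown library was above every control (average 0.41 ± 0.15, adjusted p = 0.382; 0.0269 by DESeq2). With KATNAL1 these were the 3 of 82 tested members without overlap between both knockdown groups and the controls, 2 higher and 1 lower, where 4.08% and 2.25% of all genes tested had none. The groups compared share their controls.

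ARID3A, a DNA-binding factor, had 0.81, 1.07 and 0.55 FPKM in SH3, 2.36, 1.39 and 3.06 FPKM in SH1 and 1.11, 0.55 and 1.56 FPKM in controls. SH3 was below SH1 without overlap (-1.39 ± 0.48, adjusted p = 0.308). PHF20L1, a reader of methylated lysines, had 8.59, 3.26 and 2.08 FPKM in SH3, 3.91, 7.38 and 9.63 FPKM in SH1 and 4.16, 3.94 and 3.58 FPKM in controls (1.40 ± 0.57 in SH1 against control, adjusted p = 0.407). PHF20, its paralog, averaged 3.87 ± 2.55, 2.62 ± 1.39 and 4.64 ± 2.03 FPKM in SH3, SH1 and controls. PHF3, which binds RNA polymerase II, was listed at 0 in every SH1 library and reached at most 0.18 FPKM in SH3 and 0.2 FPKM in controls. BRD2, a BET protein that reads acetylated histones, averaged 11.3 ± 1.09 FPKM in SH3, 12.2 ± 2.54 FPKM in SH1 and 9.32 ± 2.59 FPKM in controls (0.10 ± 0.20 for the average, adjusted p = 0.975). Of the 10 listed BRD2 transcripts, 8 are extra copies of a transcript at another place of the annotation. BRD1, a scaffold of acetyltransferase complexes, averaged 2.95 ± 1.25, 2.16 ± 0.56 and 4.07 ± 1.68 FPKM in SH3, SH1 and controls (-0.75 ± 0.38, adjusted p = 0.582). ARID4A, which binds the retinoblastoma protein, averaged 1.57 ± 0.36, 1.35 ± 0.61 and 1.53 ± 0.64 FPKM. Of 19 tested ARID, PHD finger and bromodomain members outside the named complexes, 0 passed.

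The genes taken by their spelling alone are given for completeness. NSDHL had 9.71, 14.13 and 14.07 FPKM in SH3, 3.4, 16.21 and 9.13 FPKM in SH1 and 10.71, 14.26 and 20.71 FPKM in controls. KATNAL1 had 1.86, 1.76 and 1.56 FPKM in SH3, 3.19, 2.23 and 2.27 FPKM in SH1 and 1.41, 1.02 and 1.18 FPKM in controls. Both knockdown groups were above the controls, and SH3 was below SH1 (0.87 ± 0.30 in SH1 against control, adjusted p = 0.299; 0.0238 by DESeq2). SETDB2-PHF11, which shares sequence with both genes it is named for, had 1.12, 1.61 and 1.62 FPKM in SH3, 1.12, 0 and 0 FPKM in SH1 and 0.26, 0.7 and 0.93 FPKM in controls. It did not pass with all libraries (adjusted p = 0.91 in SH3 against SH1 and 0.989 in SH1 against control). Without SH1 1, where it was above 0, it passed both comparisons (0.0454 and 0.0438), and likewise without SH1 1 and control 1 (0.0348 and 0.0412, where 0.88% and 0.895% of all genes passed and this gene was the 1 member called in each). It then rested on 2 SH1 libraries listed at 0.

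In SH3 against SH1, 14 of 82 tested members had all 3 SH3 libraries below all 3 SH1 libraries and 1, SETD2, had them above, where 12.6% and 9.75% of all genes tested had such gaps. Against control, 6 members lay above and 6 below in SH3 (10.2% and 7.13% of all genes) and 6 above and 3 below in SH1 (12.9% and 7.33%).

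Single transcripts of the members gave no call. Of 310 tested, 0 passed in any of the 4 comparisons, where 0.0286% of all 17495 transcripts tested passed in SH3 against control, 0.131% in SH1 against control, 0.12% for the average and 0.0972% in SH3 against SH1. At an unadjusted p under 0.05 there were 15, 16, 16 and 14 in that order, where 5.87%, 7.83%, 7.37% and 6.25% of all transcripts were. A predicted KDM6A transcript (XM_011543974) was listed at 0 in every SH3 library, against 0.68, 0.67 and 0.92 FPKM in SH1 and 0.11, 0.81 and 1.51 FPKM in controls (at least 69.3-fold lower than control, adjusted p = 0.633). A curated SETDB2 transcript (NM_001160308) had 0.89, 0.11 and 0.23 FPKM in SH3 and 0.9, 0.26 and 0.57 FPKM in SH1, and was listed at 0 in every control (at least 48.1-fold higher in SH3, adjusted p = 0.705, and 62.9-fold in SH1, adjusted p = 0.368). These bounds replace 0 by 3 counts over the group. They cover counting error only and leave out the spread between libraries. Both curated SETDB1 transcripts among the smallest p-values (NM_001145415 and NM_001393960) were listed at 0 FPKM in all SH3 libraries and in SH1 1. A predicted CHD3 transcript (XM_005256428) was listed at 0 in all SH3 libraries, at 5.2, 4 and 5.89 FPKM in SH1, and at 0, 0 and 9.22 FPKM in controls. A predicted KATNAL1 transcript (XM_024449424) was listed at 0 in all 6 knockdown libraries, against 0.71, 0.17 and 0.2 FPKM in controls. The summed KATNAL1 level went the other way, with every knockdown library above every control. In SH1, an extra copy of a KAT6B transcript (NM_001370144), a CHD1L transcript (XM_024451051) and a CHD9 transcript (XM_017023720) were listed at 0 in all 3 libraries. Controls had 0.36, 0.41 and 0.31 FPKM for the KAT6B copy, 1.8, 1.77 and 0.48 for CHD1L and 0.08, 0.28 and 0.19 for CHD9. How reads were shared among copies of the KAT6B transcript is not given. The KMT2B transcript XM_017027545 had 1.04, 0.44 and 0.54 FPKM in SH1 and was listed at 0 in controls. KMT2B is a promoter-bound relative of KMT2C. As genes, KDM6A, KMT2B and KAT6B did not pass.

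Members with fewer listed transcripts varied more between libraries. The coefficient of variation between libraries of a group had a median of 110% over the 22 members with 1 listed transcript, 45.5% over the 39 with 2 to 4 and 30.3% over the 25 with 5 or more, beside 91.9%, 46.5% and 26% over all genes of the same kinds. A value of 0 in at least 1 library occurred in 17, 11 and 1 of these members. The median SE of the log2 fold change was 1.92, 0.62 and 0.44 over the tested ones. Of the 64 members with several listed transcripts, 52 (81.2%) had some that were higher and some that were lower in SH1 1 than in control 1, and so had 83.0% of 4307 such genes in all.

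**Figure D4:**
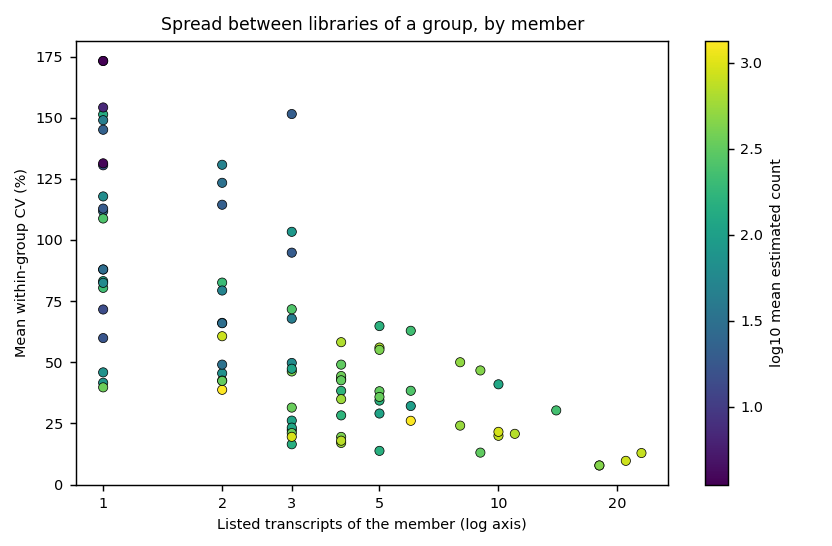
Coefficient of variation between the 3 libraries of a group, averaged over groups, against the number of listed transcripts (log axis) for each member; colour gives the mean estimated count. Members with 1 listed transcript have a median of 110%, those with 5 or more 30.3%.

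Chromatin regulators outside the spelling rule were taken from lists of further complexes: 151 genes, of which 96 were listed and 92 tested. Of these, 1 was lower in SH3 than in control, 1 lower in SH1 than in control, 2 lower for the average, and 1 higher and 1 lower in SH3 than in SH1. Over all genes tested, 0.406%, 2.14%, 1.11% and 1.36% passed in the same order of comparisons. They are HCFC1 and INO80C, each summed over 2 listed transcripts and not over the whole gene. HCFC1, an adaptor of the histone methyltransferase complexes that hold KMT2 enzymes, was listed at 0 in every SH3 library, against 1.56, 1.05 and 1.07 FPKM in SH1 and 0.36, 0.3 and 0.59 FPKM in controls. It was at least 213-fold lower in SH3 than in SH1 (adjusted p = 0.00285) and at least 79.8-fold lower than in control (adjusted p = 0.00983). These 2 bounds too cover counting error only. Without SH1 1 and control 1 the adjusted p was 0.0403 against SH1 and 0.104 against control. For the average against control, the HCFC1 adjusted p was 0.0214 with all libraries and 0.125 without SH1 1 and control 1 (edgeR). Every SH1 library was above every control for HCFC1, so this average joins groups on opposite sides of the controls. Its negative fold rests on the SH3 libraries listed at 0. INO80C, a subunit of the INO80 remodeller, had 6.03, 6.97 and 6.62 FPKM in SH3, 1.84, 1.85 and 1.85 FPKM in SH1 and 8.74, 8.65 and 8.85 FPKM in controls. Its log2 fold change was -2.40 ± 0.33 in SH1 against control (adjusted p = 0.01) and 1.89 ± 0.32 in SH3 against SH1 (adjusted p = 0.0348). Without SH1 1 and control 1 the adjusted p was 0.0624 and 0.111. For the average against control, the INO80C adjusted p was 0.0497 with all libraries and 0.138 without SH1 1 and control 1 (edgeR). PBRM1 is the remodeller subunit most often lost in this carcinoma. It had 4.66, 3.78 and 3.74 FPKM in SH3, 7.06, 5.1 and 5.41 FPKM in SH1 and 6.41, 4.52 and 5.84 FPKM in controls. It did not pass (-0.47 ± 0.18 in SH3 against control, adjusted p = 0.543; -0.05 ± 0.18 in SH1 against control, adjusted p = 0.998, and -0.02 without SH1 1 and control 1). BAP1, a Polycomb-linked deubiquitinase, averaged 1.96 ± 1.28, 0.65 ± 0.21 and 1.91 ± 1.8 FPKM in SH3, SH1 and controls and did not pass (-1.82 ± 0.86 in SH1 against control, adjusted p = 0.492).

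In the lists that hold neither HCFC1 nor INO80C, no gene passed. Of 19 Polycomb genes tested, 11 had a positive fold in SH3 and 12 in SH1 against control, with medians of 0.42 and 0.24. Of 11 genes of DNA methylation, 4 had a positive fold in SH3 and 6 in SH1 against control, with medians of -0.60 and 0.05. Of 9 further SWI/SNF subunits 3 and 4 were positive (medians -0.47 and -0.02), of 10 NuRD, SIN3 and CoREST subunits 5 and 5 (-0.07 and -0.01), and of 19 further histone-modifying enzymes 8 and 9 (-0.24 and -0.27). The lists that hold HCFC1 and INO80C had medians of -0.56 and 0.12 over 10 subunits of the KMT2 complexes and of -0.01 and -0.19 over 14 subunits of the INO80, SRCAP and NuA4 complexes. Without SH1 1 and control 1 the medians in SH3 and in SH1 against control were -0.19 and 0.46 for the KMT2 complexes and 0.12 and -0.29 for the INO80 group. They were -0.36 and 0.22 for DNA methylation, 0.37 and 0.22 for Polycomb, -0.35 and -0.02 for the further SWI/SNF subunits, -0.20 and -0.26 for the NuRD, SIN3 and CoREST subunits and -0.35 and -0.25 for the further histone-modifying enzymes.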

How the data were processed

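The authors deposited 1 table of transcripts with 4 measurement columns per library, per the file headers. FPKM, as deposited by the authors, was summed per gene to describe levels. The deposited estimated count (an expected count, not whole in every row) was summed per gene, rounded and tested. The deposited TPM gave the share of each library that the table covers, 4.20% to 5.18%. The normalized read count, a deposited signal on a linear scale, was not tested. The submitters' processing notes name the build mm10. All 86 members carry human gene numbers of RefSeq (GRCh38.p14), so the values were read as human. Aligner and counter are not given in the sources used here. Of the table's columns, 0 belonged to no sample.

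Sums were fitted in edgeR 4.0.16 under R 4.3.3 with quasi-likelihood F-tests (TMM, filterByExpr with minimum count 10, robust dispersions) in 1 fit of 9 libraries. Benjamini-Hochberg adjustment ran over 6398 genes with a threshold of 0.05. SE is the size of a log2 fold change over the square root of F. The common biological coefficient of variation was 0.948. ARID2, KDM8, PHF8 and KATNBL1 did not pass the count filter. Alternatives included DESeq2 1.42.0 and limma 3.58.1 on log2(FPKM + 1), and the scripts were tested on simulated data. A count of 0 over a group was replaced by 3 counts for a bound, which covers counting error only. Named members are those past the threshold in any comparison, the 8 with the smallest p in each of 3 comparisons, the 10 with the highest mean level, 12 listed genes named by hand, the largest and smallest average fold per function at 1 FPKM or more, and the 6 transcripts with the smallest p in SH3 and in SH1 against control. The members and lists were chosen with earlier results of these data known.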

Additional observations from a re-analysis of the deposited data

Results flagged for a closer look

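The difference between the knockdown groups was tested directly in SH3 against SH1, and among the members it passed for KMT2C, with a log2 fold change of -0.77 ± 0.14 (adjusted p = 0.0437, edgeR). All 3 SH3 libraries were below all 3 SH1 libraries. Groups of 3 libraries are too small for a test of single outlying libraries.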

How the results depend on the processing

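Of 873 values of the 47 named folds under alternatives, 827 kept their direction and their side of the threshold. The KMT2C difference in SH3 against SH1 stayed negative in 18 of 18 alternatives (-0.81 to -0.61) and passed in 5, with adjusted p up to 0.161. DESeq2 called 5 members in SH1 against control, 1 in SH3, 2 for the average and 6 in SH3 against SH1. Over all genes it called 461, 258, 360 and 415 in that order, and without SH1 1 and control 1 edgeR called 57, 7, 21 and 56. A fit of only the groups compared called 47, 8, 9 and 54 genes, the replicate block 88, 12, 39 and 39, and single transcripts 22, 5, 20 and 15. Limma on FPKM called 56 genes in SH3 against control and 137 in SH3 against SH1. In SH1 against control 1 member passed with limma, with only the groups compared (KMT2D in both) and without SH1 1 and control 1 (SETDB2-PHF11). In SH3 against SH1 0 members passed with curated transcripts, no TMM, only the groups compared, the replicate block or single transcripts. Leaving out 1 library gave 0 to 1 members in SH1 against control and in SH3 against SH1, and 59 to 110, 11 to 25, 27 to 59 and 32 to 92 genes in SH1, SH3 and the average against control and in SH3 against SH1.

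Folds of the average against control that changed sign were all far from the threshold. With curated transcripts ARID4A was 0.27, BAZ2A 0.11 and CHD9 0.022. With limma KAT6B was 0.071 and KDM2A 0.39, with the replicate block KDM2A was 1.71, and without SH1 1 and control 1 KAT6B was 0.069. Leaving out 1 library gave -0.060 to 0.61 for ARID3A, -0.65 to 0.048 for ARID4A, -0.069 to 0.23 for BRD2, -0.49 to 0.10 for CHD3, -0.43 to 0.093 for HDAC9, -0.21 to 0.024 for KAT6B and -0.85 to 4.49 for KDM2A. The cause was not tested. Limma on FPKM moved the median fold of all genes by up to 0.12, and the other alternatives by at most 0.07.

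Correlations of deviations between libraries of the same replicate number ran from -0.07 to 0.08, and of different numbers from -0.06 to 0.10. Between SH1 and SH3 they were 0.03 to 0.08 for the same number and -0.06 to -0.01 for different numbers. Whether the numbers pair the libraries was not tested. The replicate block gave an adjusted p of 0.087 for KMT2C. Members with few listed transcripts are limited by the spread between libraries, with an SE of 1.92 at 1 listed transcript.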
